A study of Homo sapiens with 40 samples.

Results

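The transcripts followed here encode 10 enzymes that make serine, interconvert serine and glycine, and move one-carbon units on folate: PHGDH, PSAT1, PSPH, SHMT1, SHMT2, MTHFD1, MTHFD2, MTHFD1L, ALDH1L2 and AMT. They were taken by symbol from a table of raw read counts with 28278 gene symbols, and all 10 passed the filter on low counts that left 16739 genes for testing. Serine is built from the glycolytic intermediate 3-phosphoglycerate in 3 steps, catalysed in turn by PHGDH, PSAT1 and PSPH. The serine hydroxymethyltransferases then cleave serine to glycine and load its side-chain carbon onto tetrahydrofolate, SHMT2 in mitochondria and SHMT1 mainly in the cytosol. MTHFD2, MTHFD1L and ALDH1L2 process these folates in mitochondria, MTHFD1 does so in the cytosol, and AMT is the aminomethyltransferase of the mitochondrial glycine cleavage system. PHGDH, PSAT1, SHMT2, MTHFD2 and ALDH1L2 are widely known as targets of ATF4, the transcription factor of the integrated stress response, which mitochondrial damage can switch on through the mitochondrial protein DELE1 and the kinase HRI.

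All samples were HEK293T cells, an established human embryonic kidney line, in 5 derivatives with 4 biological replicates per derivative and treatment (40 libraries). One derivative was wild type with an empty vector (WT vector). The other 4 are labelled as knockouts of SLC25A12, a mitochondrial aspartate-glutamate carrier, made with the guide named sgSLC25A12 in the labels. Of these, 1 received the empty vector (KO vector), 1 is labelled SLC25A12-WT, 1 SLC25A12-F137S and 1 SLC25A12-F137S dMTS-DELE1. The last 2 are called KO plus F137S and KO plus F137S plus dMTS-DELE1 below, and the last carries the F137S construct as well as the DELE1 construct. Each was kept in vehicle (Normal in the labels) or in antimycin A at 40 nM, which blocks complex III of the respiratory chain, for 6 hours. The labels do not say whether the knockout is 1 clone, which promoters drive the constructs, or what dMTS abbreviates.

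Library totals were 30730335 to 31965438 counts. The knockout showed in the transcript itself: SLC25A12 stood at 38.7 ± 1.82 CPM (counts-per-million, SD, n = 4) in WT-vector vehicle libraries and at 3.08 ± 0.23 in KO-vector ones. It was at 1853 ± 18.3 CPM in KO plus F137S and at 3716 ± 25.7 in KO plus F137S plus dMTS-DELE1, where DELE1 was at 5344 ± 84.7 against 45.9 ± 2.15 in KO plus F137S. Libraries labelled KO plus SLC25A12-WT held SLC25A12 at 38.9 ± 0.33 CPM, the native level, and differed from the WT-vector libraries in 0 of the 16739 genes in vehicle. They are therefore called the libraries labelled KO plus SLC25A12-WT throughout, and no direction is drawn from their construct. HEK293 markers were present (VIM at 349 to 491 CPM, KRT8 at 78.1 to 176), and the defining markers of leukocytes, PTPRC and CD3E, reached at most 5 and 2 counts in any library. COL1A1 of the fibroblast list was present at 14.8 to 20.9 CPM, and DCN and CDH5, of fibroblasts and endothelium, reached at most 6 and 4 counts.

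The promoters of the enzymes are shown because the ATF4-type stress response acts through short DNA elements. Windows from 250 bases before to 50 after the transcription start, from RefSeq on GRCh38.p14, matched 7 of the 10 enzymes (10 windows). Searched on both strands were TGATGNAA, the core of the C/EBP-ATF response element, and CACGTG, the E-box. The matches printed do not overlap each other. The 250 upstream bases are printed 5' to 3' on the plus strand, with matches of these 2 motifs in capitals, for the 2 enzymes with a match and for PSAT1 and MTHFD2, the enzymes with a window that differed most in vehicle with dMTS-DELE1, apart from the thinly counted AMT.
MTHFD1L, chr6:150866197-150866446: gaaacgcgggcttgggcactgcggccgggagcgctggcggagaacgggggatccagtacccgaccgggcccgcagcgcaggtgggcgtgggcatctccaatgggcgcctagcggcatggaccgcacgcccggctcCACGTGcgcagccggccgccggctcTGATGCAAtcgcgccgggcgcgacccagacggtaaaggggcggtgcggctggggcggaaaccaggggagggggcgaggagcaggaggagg
MTHFD1, chr14:64388103-64388352: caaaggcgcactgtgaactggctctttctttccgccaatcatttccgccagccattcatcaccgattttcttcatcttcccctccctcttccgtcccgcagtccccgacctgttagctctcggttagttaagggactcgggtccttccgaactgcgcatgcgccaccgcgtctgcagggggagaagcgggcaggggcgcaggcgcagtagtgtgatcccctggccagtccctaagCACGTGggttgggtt
PSAT1, chr9:78296875-78297124: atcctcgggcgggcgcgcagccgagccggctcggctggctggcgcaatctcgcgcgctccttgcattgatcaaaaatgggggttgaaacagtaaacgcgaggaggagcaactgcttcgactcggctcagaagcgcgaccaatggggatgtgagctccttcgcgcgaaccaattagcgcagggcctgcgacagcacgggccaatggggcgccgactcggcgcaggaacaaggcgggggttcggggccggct
MTHFD2, chr2:74198365-74198614: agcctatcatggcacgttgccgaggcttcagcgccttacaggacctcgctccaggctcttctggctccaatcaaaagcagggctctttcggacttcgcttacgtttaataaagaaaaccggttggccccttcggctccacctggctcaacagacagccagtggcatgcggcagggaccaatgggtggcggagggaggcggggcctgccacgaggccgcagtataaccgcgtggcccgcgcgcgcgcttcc
MTHFD1L was the 1 enzyme of 7 with TGATGNAA, in the letters TGATGCAA, 90 bases before the start site of the window printed, and 3 overlapping windows of alternative starts share that match. Over all 27305 genes with a window, 4.46% held TGATGNAA and 8.77% held CACGTG in at least 1 window (3.62% and 7.26% of 35116 windows). CACGTG was present in MTHFD1L and in MTHFD1, in the latter 15 bases before its start. The shorter core TGATG, which lies inside TGATGNAA, was found in 3 of the 7 enzymes (MTHFD1, MTHFD1L and PHGDH), in 37.7% of all genes and in 32.9% of all windows. MTHFD1L has 4 windows, and more windows give a gene more chances of a match. A match is a description of letters in these windows, and elements outside them were not searched.

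On GRCh38, GENCODE 29 places the serine synthesis genes PHGDH at chr1:119648411-119744226 (plus strand), PSAT1 at chr9:78297143-78330093 (plus strand) and PSPH at chr7:56011051-56051604 (minus strand). The hydroxymethyltransferase genes and AMT are SHMT1 at chr17:18327860-18363563 (minus strand), SHMT2 at chr12:57229327-57234935 (plus strand) and AMT at chr3:49416775-49422753 (minus strand). The folate enzyme genes are MTHFD1 at chr14:64388031-64463457 (plus strand), MTHFD2 at chr2:74198562-74217565 (plus strand), MTHFD1L at chr6:150865549-151101887 (plus strand) and ALDH1L2 at chr12:105019784-105084577 (minus strand). Levels were divided by the length of all exons annotated for a gene, merged, whichever isoform was expressed. The order depends on that length: by CPM alone in WT-vector vehicle libraries, MTHFD1 (439) was above PHGDH (392), MTHFD2 (376) and PSAT1 (359). Per kilobase of merged exon in GENCODE 29, the most abundant of the 10 transcripts in these libraries were PSAT1 (164 ± 2.31 CPM per kilobase) and PHGDH (147 ± 3.34). MTHFD2 (84.5 ± 0.29) and SHMT2 (81.7 ± 1.59) followed. MTHFD1 stood at 63.5 ± 0.95, MTHFD1L at 46.0 ± 0.65 and SHMT1 at 39.8 ± 0.80. PSPH (23.8 ± 0.95) and ALDH1L2 (13.6 ± 0.09) stood below them, and AMT was lowest at 2.21 ± 0.25, from 129 to 392 counts per library over all groups. Counts in AMT may be uncertain for a further reason: its exons overlap those of another gene model, AC104452.1, on the same strand. The longest overlap of single exons there is 925 bases. No gene of that symbol is among the raw counts, so the annotation used for counting may lack this model. For MTHFD2 and SLC4A5, on opposite strands, the longest is 1324 bases. SLC4A5 had 24 to 161 counts per library against 11214 to 17202 for MTHFD2. For SHMT1 and SMCR8, also on opposite strands, the longest is 196 bases, at 2177 to 2603 counts for SMCR8 against 2271 to 4057 for SHMT1. The sources used here do not give the use of strand in counting.

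**Figure D1:**
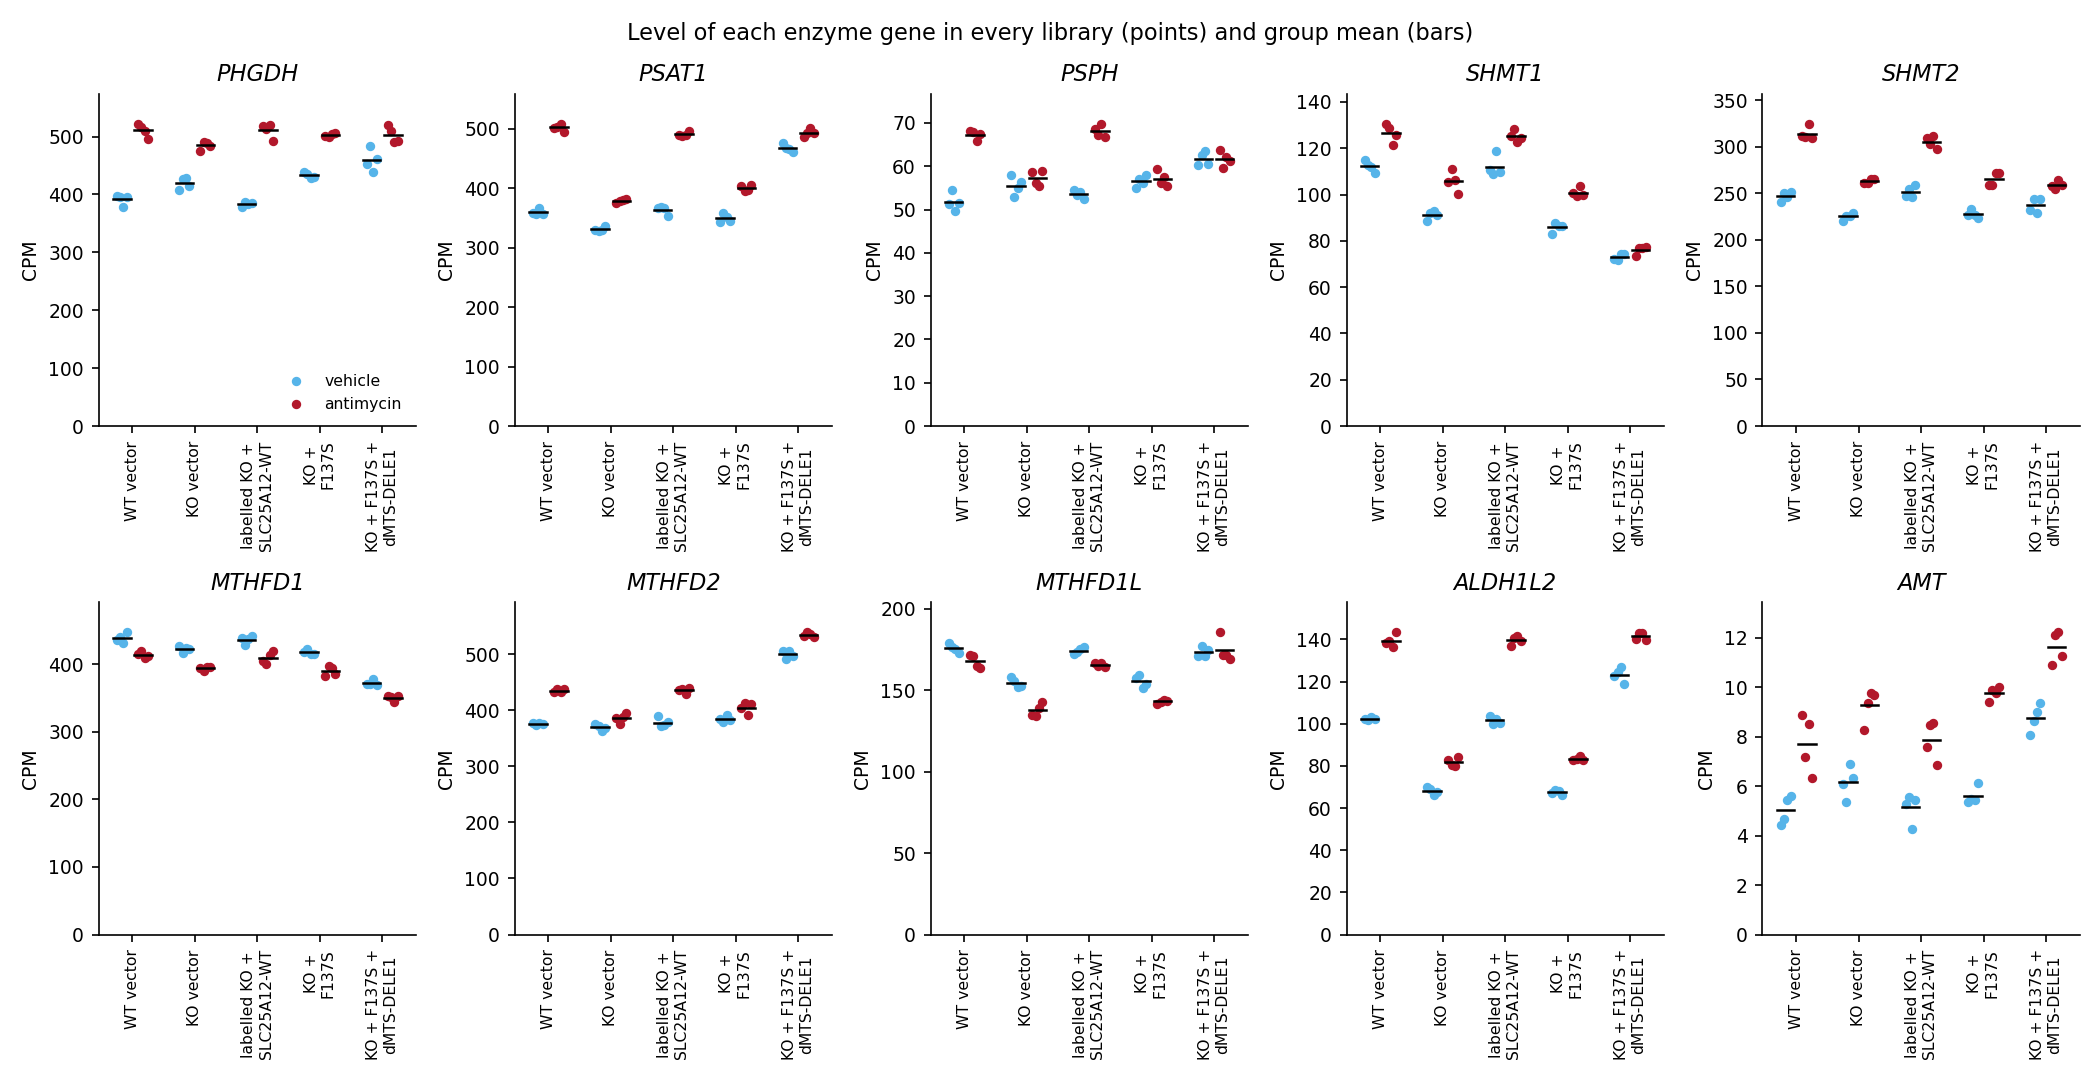
Level of each enzyme transcript in CPM (linear axis from 0) in every library, by line, in vehicle (blue) and antimycin A (red), with bars at the mean of 4 libraries. ALDH1L2 falls from 102 CPM in WT-vector to 68.2 in KO-vector vehicle libraries and stands at 123 with dMTS-DELE1, while SHMT1 is lowest there.

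The first comparison was the response of WT-vector cells to antimycin A. Of the 10 enzymes, 8 rose and 2 fell, where 25.5% of all genes tested rose and 26.4% fell. Changes were small: the 10 had a median log2 fold change of 0.36 (0.01 over all genes), and only AMT passed 1.5-fold. The share of all genes past 1.5-fold was not counted. Calls are at an adjusted p under 0.05 in edgeR's quasi-likelihood test with Benjamini-Hochberg adjustment over all 16739 genes, with log2 fold changes given ± SE. CPM are shares of a library's RNA, so a transcript's own change and a change in the rest of the RNA cannot be told apart. Cell number and RNA per cell cannot be read from them.

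All 3 enzymes of serine synthesis rose in WT-vector cells. PSAT1, the phosphoserine aminotransferase, was at 358, 356, 366 and 356 CPM in the 4 vehicle libraries and at 502, 503, 508 and 495 in the antimycin libraries. The groups were far apart, with a log2 fold change of 0.48 ± 0.02 (adjusted p = 1.1e-37). PHGDH, the phosphoglycerate dehydrogenase at the head of the pathway, was at 397, 396, 379 and 396 CPM in vehicle and at 522, 516, 509 and 495 under antimycin. Each antimycin library was again above each vehicle library (0.38 ± 0.02, adjusted p = 1.1e-26). PSPH, the final phosphatase, was much less abundant, at 51.3, 54.6, 49.6 and 51.6 CPM in vehicle and 68.1, 68.0, 65.7 and 67.4 under antimycin. The antimycin libraries of PSPH lay above its vehicle libraries (0.38 ± 0.04, adjusted p = 1.3e-15).

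Both serine hydroxymethyltransferases rose. SHMT2 was at 241, 251, 247 and 251 CPM in vehicle and at 312, 311, 325 and 309 under antimycin (0.34 ± 0.02, adjusted p = 1.7e-23). SHMT1 went from 115, 113, 112 and 109 CPM to 131, 129, 122 and 126 (0.18 ± 0.03, adjusted p = 2.4e-07). In both genes the vehicle and antimycin libraries did not overlap.

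The folate enzymes split in direction. ALDH1L2, the mitochondrial 10-formyltetrahydrofolate dehydrogenase, was at 102, 102, 103 and 102 CPM in vehicle and at 138, 139, 136 and 143 under antimycin (0.44 ± 0.03, adjusted p = 7.1e-26). MTHFD2, the mitochondrial methylenetetrahydrofolate dehydrogenase and cyclohydrolase, moved from 378, 375, 377 and 376 to 432, 437, 433 and 437 CPM (0.21 ± 0.02, adjusted p = 1.2e-16). MTHFD1, the trifunctional cytosolic enzyme, fell from 439 ± 6.58 to 414 ± 4.91 CPM (-0.08 ± 0.02, adjusted p = 3.1e-05). MTHFD1L, the mitochondrial formyltetrahydrofolate synthetase, went from 176 ± 2.48 to 168 ± 4.28 CPM (-0.07 ± 0.02, adjusted p = 1.4e-02). The fall of MTHFD1L was the weakest of the 10 changes: its call was lost at log2 values from -0.04 to -0.06 without WT-vector vehicle replicate 1 or 3 or antimycin replicate 3 or 4, and at adjusted p = 0.058 when the libraries labelled KO plus SLC25A12-WT were left out. AMT, of the glycine cleavage system, had the largest fold change of the 10 at the lowest level, from 4.43, 4.69, 5.43 and 5.61 CPM to 8.88, 7.18, 8.49 and 6.32 (0.62 ± 0.10, adjusted p = 2.0e-07).

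**Figure D2:**
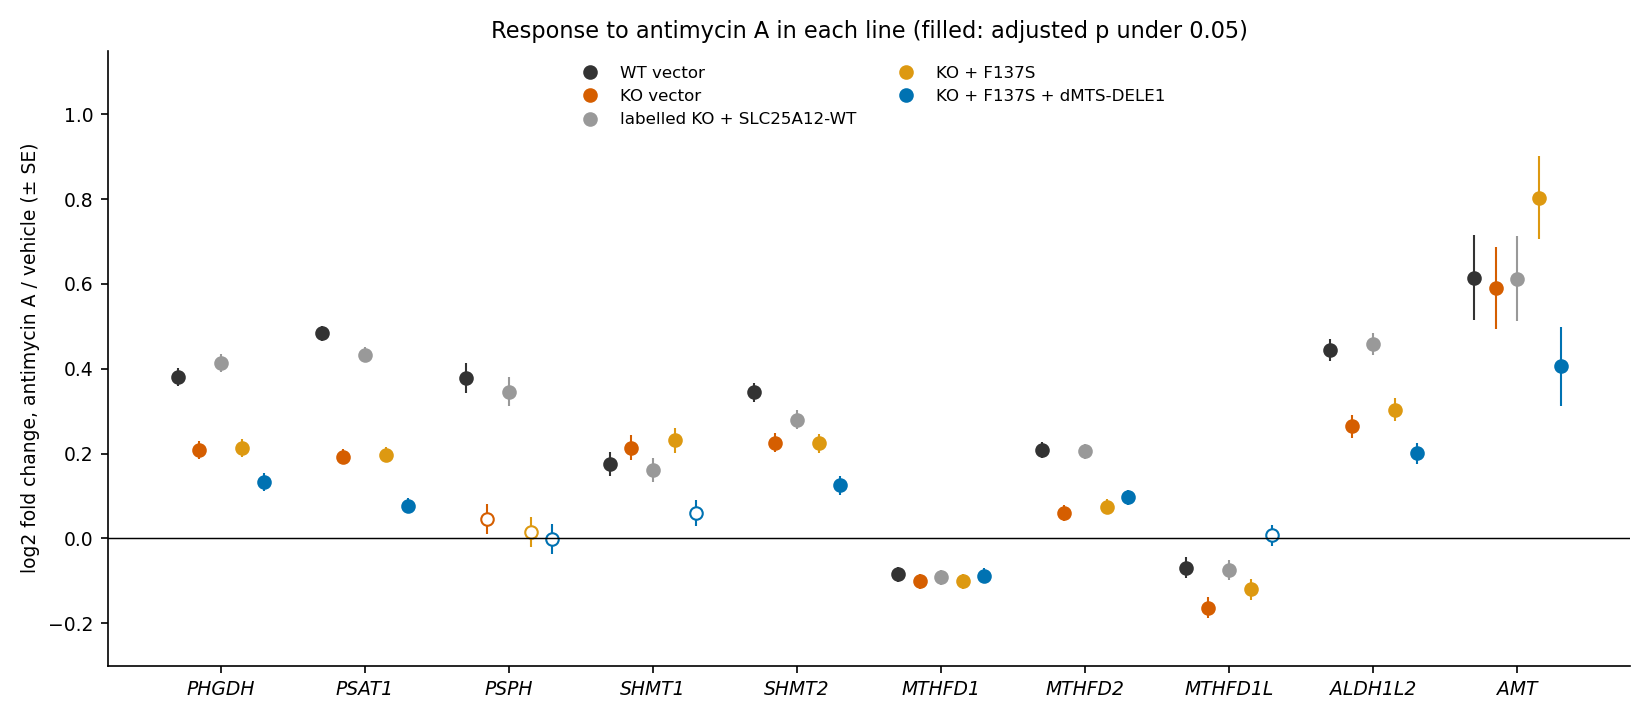
Log2 fold change of each enzyme transcript, antimycin A over vehicle, with its SE, in each of the 5 lines; filled points have an adjusted p under 0.05. PSAT1 runs from 0.48 in WT-vector cells to 0.08 in KO plus F137S plus dMTS-DELE1 cells, and PSPH is near 0 in 3 lines.

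The next comparison was between the KO-vector and WT-vector lines before any treatment. Loss of SLC25A12 and other differences between the 2 lines cannot be told apart in it. In vehicle, 6 of the 10 were lower in KO-vector than in WT-vector cells and 3 were higher, where 25.6% of all genes were lower and 22.7% higher. ALDH1L2 stood out, at 70.1, 69.0, 66.1 and 67.4 CPM in KO-vector libraries against 102 to 103 in WT-vector ones. The groups were well separated, with a log2 difference of -0.59 ± 0.03, or 0.666-fold (adjusted p = 5.3e-32). SHMT1 was at 88.5, 92.1, 92.8 and 91.2 CPM in KO-vector vehicle libraries, below the 109 to 115 of WT-vector ones (-0.30 ± 0.03, adjusted p = 1.1e-14). MTHFD1L (-0.19 ± 0.02, adjusted p = 4.7e-10), SHMT2 (-0.14 ± 0.02, adjusted p = 3.2e-07) and PSAT1 (-0.12 ± 0.02, adjusted p = 5.5e-08) were lower by less, with no overlap of libraries.

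MTHFD1 was lower by the least (-0.06 ± 0.02, adjusted p = 6.6e-03), and its call was lost with no filter on low counts (adjusted p = 0.13) or once the 8 libraries labelled KO plus SLC25A12-WT were dropped, with an adjusted p of 0.063. MTHFD2 did not pass, at 370.1 ± 5.80 CPM against 376 ± 1.30 (-0.02, 95% interval -0.06 to 0.01). PHGDH was higher, from 379 to 397 CPM in WT-vector to between 407 and 429 in KO-vector libraries (0.10 ± 0.02, adjusted p = 8.8e-05). PSPH and AMT were also called higher, with libraries that overlapped. The PSPH value of 0.10 ± 0.04 (adjusted p = 1.5e-02) fell to between 0.08 and 0.09, with no call, without WT-vector vehicle replicate 3 or KO-vector vehicle replicate 1 or 4. The AMT value of 0.29 ± 0.10 (adjusted p = 1.4e-02) fell to between 0.23 and 0.26, with no call, without WT-vector vehicle replicate 1 or 2 or KO-vector vehicle replicate 3.

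Antimycin A raised 7 of the enzymes in KO-vector cells and lowered 2, where 26.4% of all genes rose and 24.7% fell, and the median log2 change of the 10 was 0.20. PSAT1 rose from 329.8, 329, 330.2 and 336 CPM to 375, 377, 379.6 and 382 (0.19 ± 0.02, adjusted p = 1.1e-15). PHGDH rose from 419 ± 10.1 to 485 ± 7.16 CPM (0.21 ± 0.02, adjusted p = 5.5e-14). PSPH was the enzyme without a call: its antimycin libraries at 58.7, 56.2, 55.5 and 58.9 CPM overlapped the vehicle libraries at 57.9, 52.8, 54.9 and 56.4, with a change of 0.05 (95% interval -0.02 to 0.12). SHMT2 (0.23 ± 0.02), SHMT1 (0.21 ± 0.03), ALDH1L2 (0.26 ± 0.03), MTHFD2 (0.06 ± 0.02, with overlapping libraries) and AMT (0.59 ± 0.10) rose, and MTHFD1 (-0.10 ± 0.02) and MTHFD1L (-0.16 ± 0.02) fell.

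Whether the response itself differed between KO-vector and WT-vector cells was tested by the interaction. Of the 10 enzymes, 6 had a smaller response in KO-vector cells and 0 a larger one, where 0.836% of all genes responded more positively and 0.729% more negatively. Among all the genes called here, 53.4% were more positive with edgeR's scaling and 42.2% with DESeq2's size factors. The 6 covered every enzyme of serine synthesis, the mitochondrial SHMT2 and 2 mitochondrial folate enzymes. The difference was -0.33 ± 0.05 for PSPH (adjusted p = 2.1e-06), -0.29 ± 0.03 for PSAT1 (adjusted p = 7.6e-15) and -0.17 ± 0.03 for PHGDH (adjusted p = 6.3e-05). For ALDH1L2 it was -0.18 ± 0.04 (adjusted p = 1.5e-03) and for MTHFD2 -0.15 ± 0.03 (adjusted p = 7.1e-05). The SHMT2 difference of -0.12 ± 0.03 (adjusted p = 2.6e-02) lost its call without WT-vector vehicle replicate 1 (adjusted p = 0.054) or WT-vector antimycin replicate 3 (adjusted p = 0.066), at -0.12 and -0.11.

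The other 4 enzymes gave no call in that interaction. The difference was 0.04 for SHMT1 (95% interval -0.04 to 0.12), -0.02 for MTHFD1 (-0.07 to 0.03), -0.10 for MTHFD1L (-0.16 to -0.03, adjusted p = 0.18) and -0.03 for AMT (-0.30 to 0.25). SHMT1 and MTHFD1 act in the cytosol, MTHFD1L and AMT in mitochondria. ATF4 transcript had a smaller response too: it rose by 0.35 ± 0.02 in WT-vector and by 0.07 ± 0.02 in KO-vector cells, a difference of -0.28 ± 0.02 (adjusted p = 2.0e-14). The other reference genes of the stress response, DDIT3 (-0.23 ± 0.09, adjusted p = 0.28) and ASNS (-0.52 ± 0.20, adjusted p = 0.23), gave no call.

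Under antimycin A the KO-vector cells were lower than WT-vector cells in 9 of the 10 enzymes and higher in 1, where 24.5% of all genes were lower and 23.5% higher. ALDH1L2 was at 82.7, 80.5, 79.9 and 84.4 CPM against 138, 139, 136 and 143, a log2 difference of -0.77 ± 0.03 (0.588-fold, adjusted p = 2.6e-40). PSAT1 was at 375 to 382 CPM against 495 to 508 (-0.41 ± 0.02, adjusted p = 1.5e-33). MTHFD1L (-0.28 ± 0.02), SHMT1 (-0.26 ± 0.03), SHMT2 (-0.25 ± 0.02), PSPH (-0.23 ± 0.03) and MTHFD2 (-0.17 ± 0.02) followed, and PHGDH (-0.08 ± 0.02) and MTHFD1 (-0.07 ± 0.02) differed least. PHGDH and PSPH, higher in KO-vector cells in vehicle, were lower there under antimycin. AMT was higher (0.26 ± 0.10, adjusted p = 1.7e-02), with overlapping libraries. Its value fell to between 0.17 and 0.23, with no call, without WT-vector antimycin replicate 2 or 4 or KO-vector antimycin replicate 3 or 4.

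**Figure D3:**
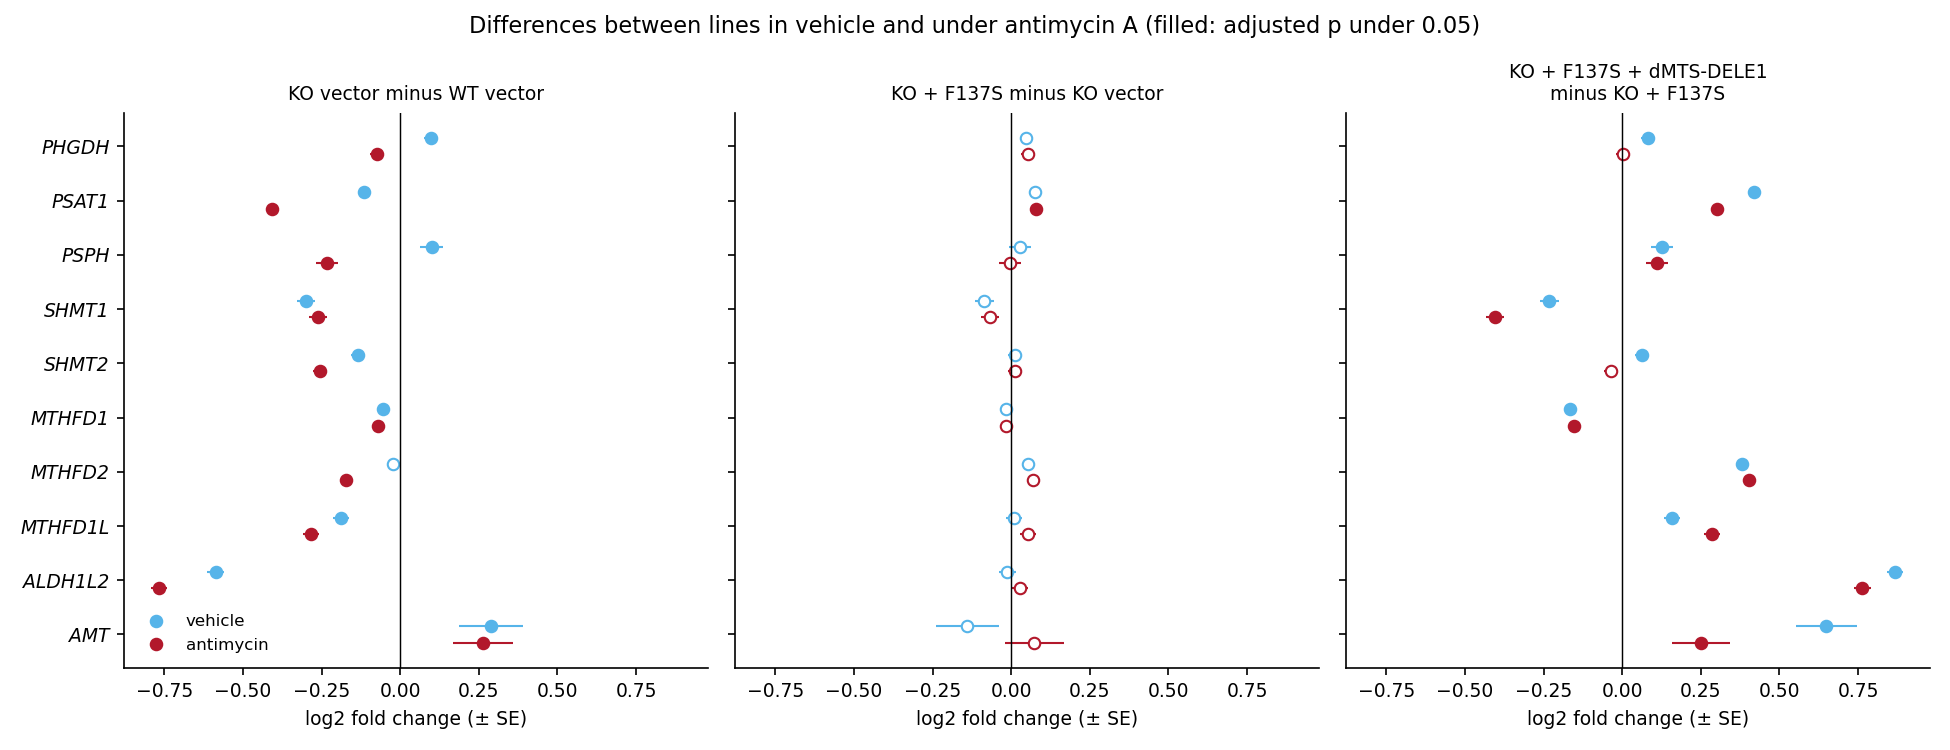
Log2 difference of each enzyme transcript between lines, with its SE, in vehicle (blue) and under antimycin A (red), for 3 pairs of lines; filled points have an adjusted p under 0.05. ALDH1L2 has the largest difference for KO vector minus WT vector and for dMTS-DELE1 minus F137S (-0.59 and 0.87 in vehicle), and 1 point for F137S minus KO vector is filled.

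The libraries labelled KO plus SLC25A12-WT were compared with both vector lines. Against WT-vector libraries, 0 of the 10 enzymes were called in vehicle (0% of all genes), 0 under antimycin (0.00597% of all genes) and 0 in the response (0% of all genes) in edgeR's test, and DESeq2 gave 0 in each. At an unadjusted p under 0.05 the counts were 0, 0 and 2 enzymes (4.65%, 4.81% and 4.52% of all genes). Log2 differences in vehicle lay between -0.03 and 0.05. PSAT1 was at 366, 368, 366 and 353 CPM in these vehicle libraries and at 489, 487, 489.8 and 496 under antimycin, and ALDH1L2 at 102 ± 1.85 and 139.5 ± 2.09. Antimycin raised 8 enzymes and lowered 2 in them (25.9% and 26.4% of all genes). The largest rises were in AMT (0.61 ± 0.10), ALDH1L2 (0.46 ± 0.03), PSAT1 (0.43 ± 0.02) and PHGDH (0.41 ± 0.02), and the fall of MTHFD1L (-0.07 ± 0.02, adjusted p = 7.5e-03) was not called, at log2 values from -0.05 to -0.06, without vehicle replicate 2 or 3 or antimycin replicate 2, 3 or 4 of these libraries.

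Against KO-vector libraries, the same samples differed in 8 enzymes in vehicle (47.8% of all genes), in all 10 under antimycin (48.2%) and in the response of 5 (1.65%). ALDH1L2 was higher by 0.58 ± 0.03 in vehicle (adjusted p = 1.8e-31) and by 0.77 ± 0.03 under antimycin (adjusted p = 2.0e-40). The 5 larger responses were those of PSPH (0.30 ± 0.05, adjusted p = 2.8e-05), PSAT1 (0.24 ± 0.03, adjusted p = 2.5e-11), PHGDH (0.21 ± 0.03, adjusted p = 1.5e-06), ALDH1L2 (0.19 ± 0.04, adjusted p = 5.0e-04) and MTHFD2 (0.14 ± 0.03, adjusted p = 1.4e-04). SHMT2 gave 0.05 (95% interval -0.01 to 0.12) with no call. These comparisons share the KO-vector libraries with those above, so they are no separate evidence about the KO-vector values. The least certain calls were lost without single libraries. In vehicle, MTHFD1 (0.05 ± 0.02) was at 0.04 without KO-vector replicate 2 or replicate 1 or 4 of the labelled libraries (and not called with no filter, adjusted p = 0.33, or in DESeq2, adjusted p = 0.053), and AMT (-0.26 ± 0.10) at -0.18 to -0.25 without KO-vector replicate 3 or 4 or labelled replicate 3. Under antimycin, AMT (-0.24 ± 0.09) was at -0.16 to -0.22 without KO-vector replicate 2, 3 or 4 or labelled replicate 1 or 4.

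KO plus F137S cells, which carried SLC25A12 transcript far above its native level, differed from KO-vector cells by small amounts in these enzymes. The median absolute log2 difference in vehicle was 0.038 for the 10 and 0.047 over all genes. Under antimycin it was 0.053 and 0.046. In vehicle, 0 of the 10 were called in edgeR's test (0.0836% of all genes). An unadjusted p under 0.05 was found for 4 of the 10, against 6.06% of all genes. DESeq2 called 1, PSAT1, and 27 genes in all. ALDH1L2 was at 67.2, 68.8, 68.0 and 66.3 CPM, inside the range of KO-vector libraries, with a difference of -0.01 (95% interval -0.07 to 0.04). Libraries of the 2 lines did not overlap for 3 of the 10 enzymes in vehicle (PSAT1, SHMT1 and MTHFD2), against 3.61% of all genes. PSAT1 was at 342, 358, 351 and 345 CPM against 329 to 336 (0.08 ± 0.02, adjusted p = 0.057), SHMT1 was lower (-0.09 ± 0.03, adjusted p = 0.55) and MTHFD2 higher (0.05 ± 0.02, adjusted p = 0.53).

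Under antimycin, 5 of the 10 had an unadjusted p under 0.05 (6.32% of all genes). Only PSAT1, 1 of the 10, was called higher in KO plus F137S than in KO-vector cells (0.114% of all genes). Its libraries were at 403, 396, 397 and 405 CPM against 375 to 382 (0.08 ± 0.02, adjusted p = 2.1e-02), and PHGDH also did not overlap (3.54% of all genes). The PSAT1 call was lost without KO-vector antimycin replicate 1 or 2 or F137S antimycin replicate 1 or 4, with the log2 value still at 0.08 in each. Without KO-vector antimycin replicate 4 or F137S antimycin replicate 3, MTHFD2 was called as well, at 0.08 and 0.09. In the response to antimycin, 0 of the 10 differed (0% of all genes) in edgeR and in DESeq2. An unadjusted p under 0.05 was found for 0 (4.25% of all genes). The interval of that difference was -0.04 to 0.05 for PSAT1, -0.05 to 0.06 for PHGDH, -0.13 to 0.07 for PSPH and -0.04 to 0.11 for ALDH1L2.

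Antimycin itself raised 7 enzymes in KO plus F137S cells and lowered 2 (26.3% and 24.9% of all genes), with PSPH again not called (0.01, 95% interval -0.05 to 0.08). AMT rose by 0.80 ± 0.10, ALDH1L2 by 0.30 ± 0.03, SHMT1 by 0.23 ± 0.03, SHMT2 by 0.22 ± 0.02, PHGDH by 0.21 ± 0.02, PSAT1 by 0.20 ± 0.02 and MTHFD2 by 0.08 ± 0.02.

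The DELE1 construct was examined against KO plus F137S cells, which share the F137S construct, although SLC25A12 transcript was also 1.00 ± 0.02 log2 units higher with it in vehicle, so the 2 cannot be told apart. In vehicle, 8 enzymes were higher with dMTS-DELE1 and 2 lower, where 17.7% of all genes were higher and 24.1% lower. ALDH1L2 was at 123, 125, 127 and 119 CPM against 66.3 to 68.8, a log2 difference of 0.87 ± 0.03 (1.82-fold, adjusted p = 3.1e-43). These libraries were also above every WT-vector vehicle library. PSAT1 was at 475, 467, 465 and 461 CPM against 342 to 358 (0.42 ± 0.02, adjusted p = 5.4e-34), and MTHFD2 at 506, 492, 506 and 497 against 379.5 to 391 (0.38 ± 0.02, adjusted p = 1.9e-30). AMT rose from between 5.36 and 6.11 CPM to 8.07, 8.64, 8.99 and 9.37 (0.65 ± 0.10, adjusted p = 5.8e-08). MTHFD1L was higher by 0.16 ± 0.02 (adjusted p = 9.5e-08) and PSPH by 0.13 ± 0.03 (adjusted p = 2.1e-03).

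PHGDH (0.08 ± 0.02, adjusted p = 9.3e-04) and SHMT2 (0.06 ± 0.02, adjusted p = 1.8e-02) were higher by little, with overlapping libraries, and SHMT2 was at 0.05 with no call without dMTS-DELE1 vehicle replicate 2 or 4. SHMT1 and MTHFD1 went the other way. SHMT1 was at 72.2, 71.9, 74.2 and 74.3 CPM against 83.1 to 87.5 (-0.23 ± 0.03, adjusted p = 7.3e-10), and MTHFD1 at 371, 371, 377 and 369 against 415 to 423 (-0.17 ± 0.02, adjusted p = 8.0e-13). Neither group overlapped its comparator. DDIT3, a stress response transcription factor, was higher by 1.73 ± 0.06 in the same comparison and ATF4 transcript by 0.08 ± 0.02.

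Under antimycin, 6 enzymes were higher with dMTS-DELE1 and 2 lower (25.5% and 28.8% of all genes). ALDH1L2 (0.76 ± 0.03, adjusted p = 3.7e-40), MTHFD2 (0.40 ± 0.02, adjusted p = 3.4e-32), PSAT1 (0.30 ± 0.02, adjusted p = 1.4e-25) and MTHFD1L (0.29 ± 0.02, adjusted p = 4.0e-17) led. PSPH was higher by 0.11 ± 0.03 and AMT by 0.25 ± 0.09 (adjusted p = 1.7e-02), the latter at 0.22 with no call without dMTS-DELE1 antimycin replicate 3. SHMT1 was lower by a log2 difference of -0.40 ± 0.03 (adjusted p = 2.4e-20) and MTHFD1 by -0.15 ± 0.02 (adjusted p = 7.2e-12). PHGDH (0.00, 95% interval -0.04 to 0.04) and SHMT2 (-0.04, -0.08 to 0.01) did not pass.

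Within KO plus F137S plus dMTS-DELE1 cells antimycin A still raised 6 enzymes and lowered 1 (17.6% and 17.3% of all genes), with a median log2 change of 0.09 over the 10. PSAT1 went from 461 to 475 CPM in vehicle to 486, 492, 500.4 and 492 (0.08 ± 0.02, adjusted p = 2.5e-04). AMT (0.41 ± 0.09), ALDH1L2 (0.20 ± 0.03), PHGDH (0.13 ± 0.02), SHMT2 (0.13 ± 0.02) and MTHFD2 (0.10 ± 0.02) rose as well, and MTHFD1 fell (-0.09 ± 0.02). PSPH (-0.00, 95% interval -0.07 to 0.07), SHMT1 (0.06, 0.00 to 0.12) and MTHFD1L (0.01, -0.04 to 0.06) did not pass.

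Compared with KO plus F137S, the response was smaller with dMTS-DELE1 in 4 enzymes and more positive in 1, where 8.24% of all genes responded more positively and 3.7% more negatively. SHMT1 (-0.17 ± 0.04, adjusted p = 2.7e-03) and PSAT1 (-0.12 ± 0.02, adjusted p = 3.0e-04) kept their call whichever of the 16 libraries was left out. MTHFD1L (0.13 ± 0.03, adjusted p = 7.3e-03) was at 0.09 to 0.10, with no call, without F137S vehicle replicate 2, F137S antimycin replicate 1 or dMTS-DELE1 vehicle replicate 1, and at 0.11 (adjusted p = 0.066) in a fit of these 4 groups alone. SHMT2 (-0.10 ± 0.03, adjusted p = 2.5e-02) was at -0.08 to -0.09 with no call without dMTS-DELE1 vehicle replicate 2 or 4. Leaving out dMTS-DELE1 vehicle replicate 2 gave 3 enzymes called in place of 5. AMT (-0.40 ± 0.13, adjusted p = 3.9e-02) lost its call without any of 8 libraries: F137S vehicle replicates 1 and 3, F137S antimycin replicate 4, dMTS-DELE1 vehicle replicates 2, 3 and 4 and dMTS-DELE1 antimycin replicates 1 and 4, at -0.36 to -0.41. PHGDH (-0.08 ± 0.03, adjusted p = 0.063) and ALDH1L2 (-0.10 ± 0.04, adjusted p = 0.054) missed the threshold with all libraries. They passed it without 11 and 12 of the 16 in turn, at -0.09 to -0.11 and -0.11 to -0.13. Those values are larger in size than with all libraries. Each such fit also recomputed the scaling of every library kept, so the changes cannot be assigned to the library left out.

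**Figure D4:**
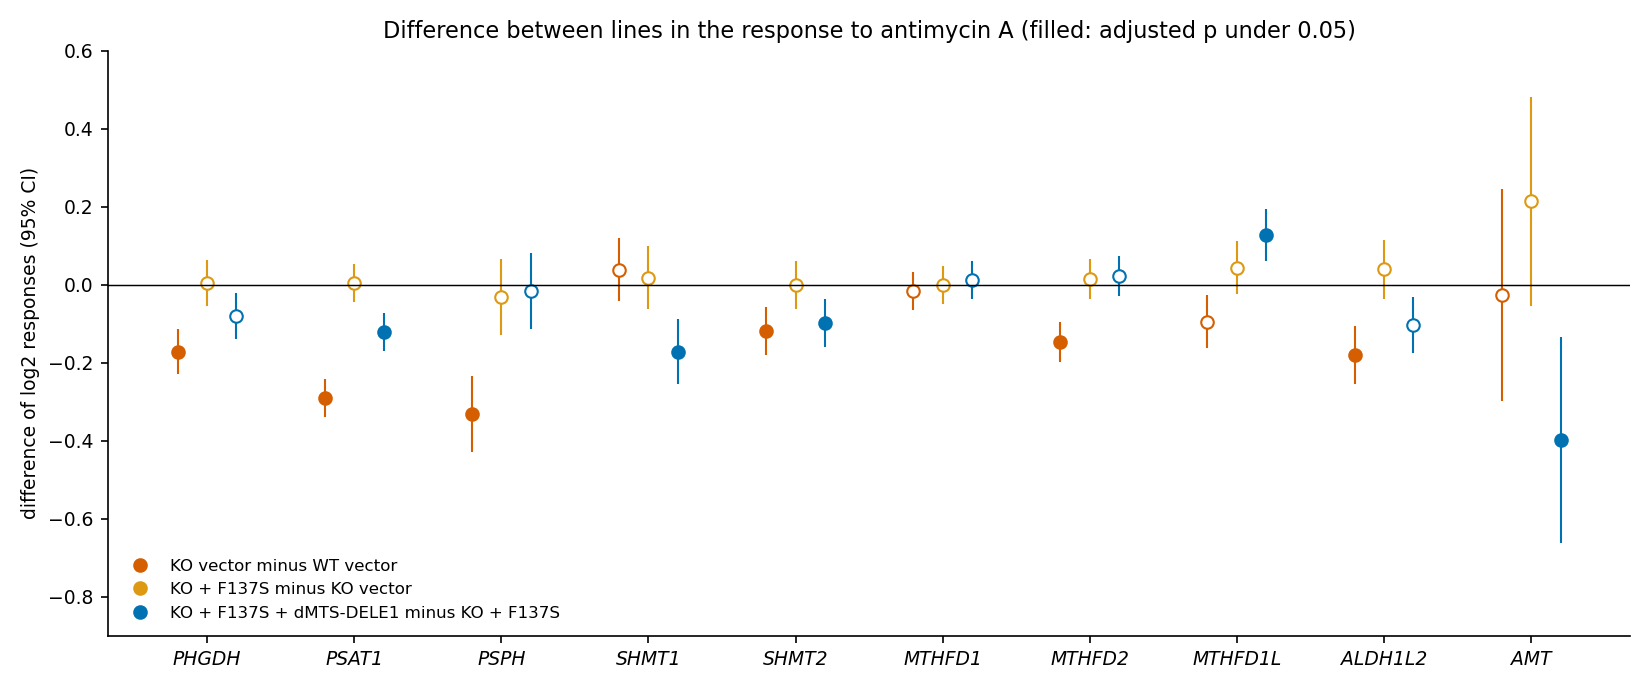
Difference between lines in the log2 response to antimycin A for each enzyme transcript, with its 95% interval; filled points have an adjusted p under 0.05. PSAT1 and PSPH are lowest for KO vector minus WT vector (-0.29 and -0.33), and the points for KO plus F137S minus KO vector are all open.

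Ordered by level, the ranking of the lines differed among enzymes, although many neighbouring lines overlapped. SHMT1 and MTHFD1 had the same order as each other in each treatment. In vehicle, PSAT1, PSPH, PHGDH, MTHFD2, ALDH1L2 and AMT were highest with dMTS-DELE1, although PHGDH there overlapped KO plus F137S. ALDH1L2 ran from dMTS-DELE1 through WT-vector and the libraries labelled KO plus SLC25A12-WT, which overlapped each other, down to KO-vector and KO plus F137S, which also overlapped. SHMT1 and MTHFD1 were highest in WT-vector and lowest with dMTS-DELE1. Under antimycin, ALDH1L2 with dMTS-DELE1 overlapped the libraries labelled KO plus SLC25A12-WT, while MTHFD2 with dMTS-DELE1, at 533, 539, 536 and 531 CPM, stood above every other library.

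Across the 40 libraries the log2 CPM of PSAT1 and ALDH1L2 had a Pearson r of 0.89, PSAT1 and PSPH 0.85, PSAT1 and MTHFD2 0.84, and PHGDH and AMT 0.81. MTHFD1 ran against MTHFD2 (r = -0.84) and AMT (r = -0.87). These are descriptions over libraries that share groups: within groups, the r of the 45 pairs lay between -0.43 and 0.50. Of 12498 other genes, SLC6A9, a glycine transporter, had the pattern most like PSAT1 (r = 0.98 over 40 libraries), ATF4 was most like PSPH (r = 0.91), and CDKN1A, NUPR1 and DDIT3 were most like MTHFD2 (r = 0.97 each). GARS1, glycyl-tRNA synthetase, came after TES as most like ALDH1L2 (r = 0.97 and 0.98), and SLC25A11 was most like SHMT1 and HSP90AB1 most like MTHFD1 (r = 0.98 each). PHGDH was most like DGAT2 (r = 0.94), SHMT2 like MKNK2 (r = 0.97), MTHFD1L like GOLGB1 (r = 0.94) and AMT like ARRDC3 (r = 0.94). Over the 10 group means, PSAT1, PSPH and PHGDH kept their most alike gene. The first gene there was SMARCD2 for SHMT1, JUND for SHMT2, MRPS27 for MTHFD1 and NUPR1 for MTHFD2. It was SUPT7L for MTHFD1L, DRAM1 for ALDH1L2 and CLK3 for AMT.

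A list of 41 other genes of serine, glycine and folate metabolism gave context, of which 39 were tested. In WT-vector cells under antimycin, 11 rose, 9 fell and 19 did not pass, with a median log2 change of 0.04, where 25.5% of all genes rose and 26.4% fell. The counts by role that follow are for small groups and stand beside the same shares. All 4 serine and glycine transporters rose, led by SLC6A9 (1.43 ± 0.06, adjusted p = 1.4e-34) and SLC38A2, a neutral amino acid carrier (0.45 ± 0.02, adjusted p = 1.3e-24). Of 7 genes that use serine or glycine, 4 rose and 0 fell, among them GCAT, which cleaves 2-amino-3-ketobutyrate to glycine (0.33 ± 0.05), and GARS1 (0.24 ± 0.02). Of 4 folate uptake and retention genes, 1 rose and 1 fell, and of 8 mitochondrial partners 1 rose and 2 fell. FPGS, which retains folate in cells by adding glutamates, rose by 0.19 ± 0.04 and SFXN2, of the sideroflexin family, by 0.26 ± 0.04. SLC19A1, the reduced folate carrier, stood at -0.59 ± 0.05 (adjusted p = 3.1e-11) and SLC25A32, the mitochondrial folate carrier, at -0.49 ± 0.03. In the methionine cycle 1 gene rose and 3 fell, including MAT2A, the S-adenosylmethionine synthetase (-0.40 ± 0.02), and MTRR (-0.33 ± 0.03). Of the partners of AMT in glycine cleavage, GLDC and DLD did not pass and GCSH fell (-0.15 ± 0.04).

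In vehicle, KO-vector cells were lower than WT-vector cells in 17 of these 39 genes and higher in 5, where 25.6% of all genes were lower and 22.7% higher. MTHFD2L, a paralog of MTHFD2, had the largest difference of those called (-0.52 ± 0.07, adjusted p = 7.7e-09), while MTHFD2 itself did not pass. SLC46A1, the proton-coupled folate transporter (-0.39 ± 0.07), and SLC25A32 (-0.38 ± 0.03) were lower as well, as were GCSH (-0.28 ± 0.04) and GLDC (-0.12 ± 0.04) of the glycine cleavage system. SLC1A4, a neutral amino acid exchanger that carries serine, was higher (0.43 ± 0.05, adjusted p = 5.3e-12). The response to antimycin was smaller in KO-vector cells for 5 of the 39 genes and more positive for 1 (0.729% and 0.836% of all genes), with SLC6A9 at -0.71 ± 0.09 (adjusted p = 5.1e-09). With dMTS-DELE1, 9 of the 39 were higher and 18 lower than in KO plus F137S in vehicle (17.7% and 24.1% of all genes), and SLC6A9 was higher by 1.16 ± 0.06 (adjusted p = 8.1e-29).

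**Figure D5:**
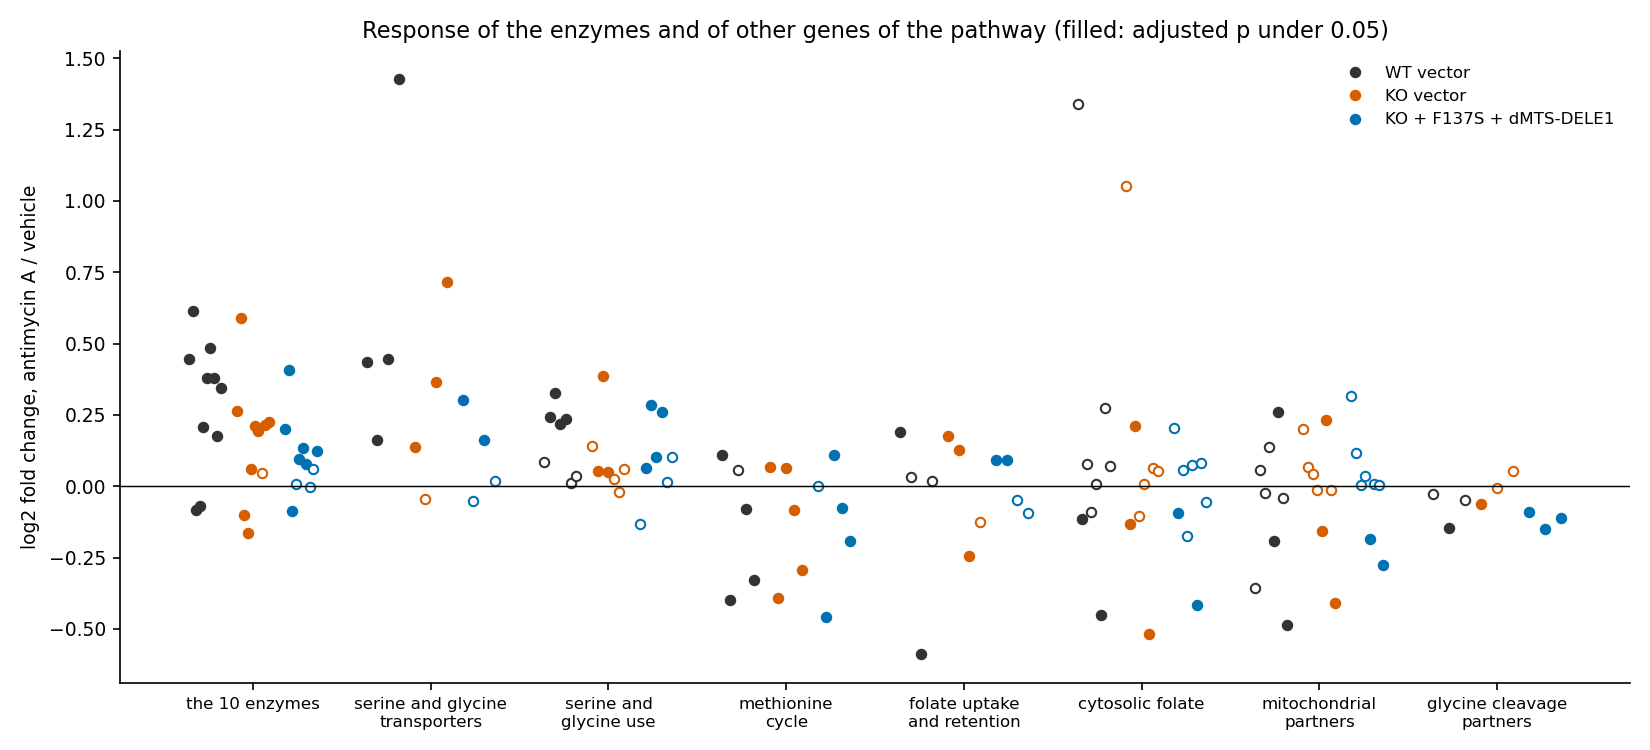
Log2 fold change, antimycin A over vehicle, of the 10 enzymes and of 39 other genes of the pathway by role, in WT-vector, KO-vector and KO plus F137S plus dMTS-DELE1 cells; each point is 1 gene and filled points have an adjusted p under 0.05. The 4 transporters are all above 0 and filled in WT-vector cells, led by SLC6A9 at 1.43, and the median of the 10 enzymes goes from 0.36 in WT-vector to 0.20 in KO-vector and 0.09 in dMTS-DELE1 cells.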

How the data were processed

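Poly(A) RNA was sequenced in 40 libraries of HEK293T derivatives. The deposited table holds raw counts per gene symbol. Reads were processed with HISAT2 2.1.0, featureCounts 2.0.6 and hg38, per the submitters' processing notes, and the sources used here do not give settings, annotation or strandedness. Counts of 1 to 20 were even in 55.1 to 58.7% of cases and had a variance over their mean of 1.77 to 1.81 between replicates, which holds counting error and variation between samples together.

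Counts were fitted with edgeR 4.0.16 in R 4.3.3 (TMM, filterByExpr, robust quasi-likelihood, 1 coefficient per group over all 40 libraries, 20 comparisons, Benjamini-Hochberg over 16739 genes). The procedure was tested on simulated data. CPM use TMM-scaled library sizes, log2 CPM a prior count of 2, and intervals are 95%. Alternatives were DESeq2 1.42.0 (test and size factors), no filter, a 1.5-fold minimum, the compared groups alone, dropping the 8 libraries labelled KO plus SLC25A12-WT, each library left out, and the replicate number as a block.

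All 10 enzymes were named. Other pathway genes were named by the largest absolute change among called genes, at most 2 per role, in the WT-vector response and in KO vector minus WT vector in vehicle. Like genes were the highest Pearson r among tested genes with a mean log2 CPM of at least 1. Some genes of the lists are not reported here by name. The enzymes and lists were chosen with earlier results of these data known. Positions and exon lengths are from GENCODE 29, and the annotation used for counting may differ. Replicates are labelled biological, and the labels do not say that they were separate cultures, so p-values measure the spread between these samples.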

Additional observations from a re-analysis of the deposited data

Results flagged for a closer look

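In each of 100 sets of 4 libraries (10 enzymes in 10 groups) the library farthest from the rest was checked with Dixon's criterion, which chance meets in about 1 in 20 sets, and 6 met it. PHGDH was at 379 CPM in WT-vector vehicle replicate 3, with the other libraries at 396 to 397. PSAT1 was at 353 CPM in vehicle replicate 4 among libraries labelled KO plus SLC25A12-WT (others 366 to 368), and SHMT1 at 73.5 in dMTS-DELE1 antimycin replicate 1 (others 77.1 to 77.2). SHMT2 stood at 325 CPM in WT-vector antimycin replicate 3 (others 309 to 312), MTHFD1 at 389 in KO-vector antimycin replicate 2 (others 395 to 396) and AMT at 6.11 in F137S vehicle replicate 4 (others 5.36 to 5.46). The 6 came from 6 different libraries.

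A difference between lines in the response to antimycin passed the interaction test in 16 cases. For KO vector minus WT vector these were PSPH (-0.33), PSAT1 (-0.29), ALDH1L2 (-0.18), PHGDH (-0.17), MTHFD2 (-0.15) and SHMT2 (-0.12). For the libraries labelled KO plus SLC25A12-WT minus KO vector they were PSPH (0.30), PSAT1 (0.24), PHGDH (0.21), ALDH1L2 (0.19) and MTHFD2 (0.14). For KO plus F137S plus dMTS-DELE1 minus KO plus F137S they were AMT (-0.40), SHMT1 (-0.17), PSAT1 (-0.12), MTHFD1L (0.13) and SHMT2 (-0.10). The first and the second of these comparisons share the KO-vector libraries.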

How the results depend on the processing

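No enzyme's called change took the opposite direction under any alternative, and in 20 comparisons of 10 enzymes 199 of 200 calls were as reported with DESeq2's size factors, 196 with the DESeq2 test, 196 with the compared groups alone and 195 with no filter. Leaving out the libraries labelled KO plus SLC25A12-WT ended 2 calls among 130 values. With the replicate number as a block, 200 of 200 were as reported. Same-numbered libraries of different groups had residuals with a mean r of -0.0010 (0 of 180 pairs over 0.1), and 9 of 40 libraries were closest to their own number, so the numbers were not taken as pairs.

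The effects are small, so a 1.5-fold minimum ended 107 calls. The share of all genes passing that minimum was not counted, so the enzyme counts have no background beside them. The minimum left 1 enzyme in the antimycin response of WT-vector, KO-vector, labelled KO plus SLC25A12-WT and KO plus F137S cells, and 0 with dMTS-DELE1. Between lines in vehicle it left 1 for KO vector minus WT vector, 0 for labelled KO plus SLC25A12-WT minus KO vector and 2 for dMTS-DELE1 minus F137S. Under antimycin it left 1, 1 and 1 for the same pairs and 0 for F137S minus KO vector, and it left 0 in each difference of responses. For F137S minus KO vector, DESeq2 called 1 enzyme in vehicle (27 genes in all) and 2 under antimycin (33 genes in all). Under antimycin, 0 enzymes were called with no filter and 0 with these groups alone. For the response difference of dMTS-DELE1 minus F137S, no filter gave 3. Leaving out single libraries gave 0 to 2 enzymes for F137S minus KO vector under antimycin and 3 to 7 for that response difference. Every fit without a library recomputed scaling and spread over the libraries kept. A call lost or gained without a named library may therefore not rest on that library's own values. Of 200 level values, taken with DESeq2's size factors or with no filter, 197 moved by less than 1 SD. DESeq2's scaling moved the median of all genes by at most 0.014 on the log2 scale. With it, 57.3% of the genes called in the response of labelled KO plus SLC25A12-WT minus KO vector were more positive, against 42.8%. Depth limits AMT most, at 129 to 392 counts, where SEs were 0.09 to 0.14 on the log2 scale.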

Other observations

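DMGDH, dimethylglycine dehydrogenase, a mitochondrial enzyme that passes one-carbon units to folate, was singled out after its values were seen. It was at 5.43 ± 0.64 CPM (SD, n = 4) in KO plus F137S plus dMTS-DELE1 vehicle libraries, from 145 to 193 counts. In KO plus F137S vehicle libraries it was at 0.26 ± 0.15 CPM, from 4 to 14 counts. The log2 difference was 4.36 ± 0.25 in vehicle and 4.35 ± 0.24 under antimycin A. No p-value is given, because the gene was picked from these values. With so few counts elsewhere, DMGDH may have passed the filter on low counts only through the dMTS-DELE1 libraries. In the other 3 lines its vehicle level was 0.12 to 0.29 CPM.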
